A study of Mus musculus with 12 samples.

Results

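Eph receptors and ephrins were followed as a family in cultured mouse neuronal progenitor cells (mNPCs). The 10 genes followed were the EphA receptors Epha2, Epha3, Epha4, Epha5 and Epha7, the EphB receptors Ephb1, Ephb2 and Ephb3, and the ephrin-B ligands Efnb1 and Efnb2, out of 18911 genes in the table. Epha4 was picked for its measured values, namely a wide spread between replicates, and the other 9 were named as relatives to set beside it over all 12 libraries. The levels and the spread of Epha4 are therefore given as a description without a test. All 10 genes passed the filter on low counts, which kept 17076 genes, so that no member was lost.

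Libraries of 4 genotypes were compared, 3 of each, all from poly(A)-selected RNA from mNPCs grown from the hippocampus of newborn (P0) pups on a C57BL/6J background. Kmt2a+/+ cells carried 2 intact copies of Kmt2a, which encodes a histone H3 lysine 4 methyltransferase. Kmt2a+/LSL cells carried LSL, a stop cassette between loxP sites, within intron 1 of 1 copy. Nes-Cre+/- Kmt2a+/LSL cells carried the same cassette and 1 copy of a Cre transgene under the nestin promoter, which removes the cassette in neural cells before birth, and Nes-Cre+/- Kmt2a+/+ cells carried the transgene alone. The study asked whether restoring Kmt2a in utero reverses the changes in expression. The paper calls the replicates biological, but the sources used here do not say whether they came from separate pups, litters or culture days. The p-values therefore measure only the spread between these libraries, part of which may be technical.

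Eph receptors form the largest family of receptor tyrosine kinases, and their ligands, the ephrins, sit in the membrane of the neighbouring cell. EphA receptors bind mainly the lipid-anchored ephrin-A ligands and EphB receptors the transmembrane ephrin-B ligands, with Epha4 able to bind both classes. Contact between receptor and ligand sends a signal into both cells, and in the hippocampus the family is known for roles in progenitor migration and proliferation, axon guidance and dendritic spine shape.

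The sequence upstream of the start site is shown for the member with the widest spread between replicates, Epha4, and the member with the narrowest, Efnb2. Both are the 250 bases before the RefSeq start (GRCm38.p6), written 5′ to 3′ on the gene's strand with CG dinucleotides in capitals. The Epha4 window lies at chr1:77515089-77515338 and the Efnb2 window at chr8:8661243-8661492, both on the minus strand.
Epha4: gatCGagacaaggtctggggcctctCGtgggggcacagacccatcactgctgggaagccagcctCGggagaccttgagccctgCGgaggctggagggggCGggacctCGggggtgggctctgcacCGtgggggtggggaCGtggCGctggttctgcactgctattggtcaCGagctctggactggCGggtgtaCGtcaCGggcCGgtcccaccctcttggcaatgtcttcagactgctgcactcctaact
Efnb2: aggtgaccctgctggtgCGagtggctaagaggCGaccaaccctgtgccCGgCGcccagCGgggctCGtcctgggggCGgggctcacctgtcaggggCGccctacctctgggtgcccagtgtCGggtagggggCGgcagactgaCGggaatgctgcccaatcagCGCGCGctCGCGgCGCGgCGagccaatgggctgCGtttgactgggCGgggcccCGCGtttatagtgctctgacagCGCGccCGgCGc
The Epha4 window held 14 CG dinucleotides with a GC content of 66%, and the Efnb2 window 27 with 72.0%. Over 32851 RefSeq windows of the same length the medians were 6 CG dinucleotides and 52.4% GC. All 10 members had a window by symbol. At least 10 CG dinucleotides were present upstream of 9 of the 10 members, Epha2 with 9 being the other, against 37.8% of all windows. The letters TATAAA, on either strand, were found upstream of Efnb2 and of no other member (12.4% of all windows), and GGGCGG upstream of 6 members, once for Epha4 and 3 times for Efnb2 (32.7% of all windows). These are matches of letters only, and the 2 motifs cannot overlap.

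In GRCm38, Epha2 (ENSMUSG00000006445) is at chr4:141301240-141329384, Epha3 (ENSMUSG00000052504) at chr16:63543534-63864175, Epha4 (ENSMUSG00000026235) at chr1:77367185-77515088, Epha5 (ENSMUSG00000029245) at chr5:84054761-84417382 and Epha7 (ENSMUSG00000028289) at chr4:28813131-28967499. Of the EphB genes, Ephb1 (ENSMUSG00000032537) is at chr9:101922128-102354693, Ephb2 (ENSMUSG00000028664) at chr4:136647539-136835988 and Ephb3 (ENSMUSG00000005958) at chr16:21204755-21223305. The ligand genes Efnb1 (ENSMUSG00000031217) and Efnb2 (ENSMUSG00000001300) are at chrX:99136130-99148991 and chr8:8617434-8661242. Counts cover the exons of all annotated transcripts of a gene. Between 0% and 2.21% of the 31-base words of a member's transcripts also occurred in those of another gene, the highest share being that of Ephb1, so little of the signal could be divided among relatives. Epha5 and Ephb1 each overlap 1 gene of the table on the opposite strand, and reads of such pairs may not have been told apart.

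Library totals ranged from 18280008 to 28596919 estimated counts, at which 3 counts corresponded to 0.103 to 0.178 CPM (counts scaled to a TMM-adjusted library size). Such floors and the intervals below cover counting error only. Kmt2a, the targeted gene, was measured at 166 to 167 CPM in the 3 Kmt2a+/LSL libraries and at 259 to 310.0 CPM in the other 9, which sets the Kmt2a+/LSL libraries apart as labelled and cannot tell the other 3 genotypes from each other. Kmt2a+/+ replicate 1 stood apart from its group, with a median correlation of log2 CPM with the other Kmt2a+/+ libraries of 0.903, against 0.939 to 0.984 for the remaining 11 libraries. It also had the smallest total. The progenitor markers Fabp7, Vim and Slc1a3 averaged 3891, 2116 and 2222 CPM, and Sox2 333 CPM. Others of that list were lower, with Hes5, Pax6 and Prom1 at 88.3, 40.7 and 5.70 CPM. Markers of oligodendrocyte precursors and astrocytes were present too, but unevenly. The 8 oligodendrocyte markers averaged from 0.0395 (Mog) to 3004 CPM (Olig1), with Pdgfra at 39.4 and Sox10 at 4.97 CPM. The 8 astrocyte markers averaged from 0.0486 (Gjb6) to 823 CPM (Slc1a2), with Gfap at 145 CPM. Of the neuron markers, Map2 averaged 1370.0 CPM and the other 11 between 0.0201 and 18.9 CPM. In bulk RNA, fewer cells of a type and less RNA per cell cannot be told apart.

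Epha5 gave most of the EphA signal. Epha5, which binds ephrin-A ligands and is largely restricted to the nervous system, measured 205, 211 and 128 CPM in the Kmt2a+/+ libraries. It measured 131, 176 and 169.8 CPM in Kmt2a+/LSL libraries. With nestin-Cre it measured 161, 179 and 165 CPM in Kmt2a+/+ and 210.4, 196 and 169.5 CPM in Kmt2a+/LSL cells. The 4 genotypes overlapped, and the highest library was only 1.64-fold above the lowest. Per kilobase of the longest transcript, Epha5 made up 75.6% of the summed EphA signal on average (63.4% to 87.3% over the libraries).

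Epha4 was the member whose level depended most on the library. It measured 34.9, 3.38 and 17.3 CPM in the 3 Kmt2a+/+ libraries and 17.7, 3.86 and 2.71 CPM in Kmt2a+/LSL. In the presence of nestin-Cre it reached 18.0, 62.5 and 22.4 CPM in Kmt2a+/+ and 39.3, 15.6 and 46.0 CPM in Kmt2a+/LSL cells. All 6 libraries with Cre lay above 15 CPM, whereas 3 of the 6 without it lay below 4 CPM, so that the groups with and without Cre overlapped through the other 3.

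The lowest library, Kmt2a+/LSL replicate 3, held 63 counts (2.71 CPM, exact Poisson 95% interval 2.09 to 3.47) and the highest, Nes-Cre+/- Kmt2a+/+ replicate 2, held 1462 (62.5 CPM, 59.3 to 65.8), a ratio of 23.03. Within a genotype the highest library exceeded the lowest 10.3-fold for Kmt2a+/+ and 6.53-fold for Kmt2a+/LSL, and, with nestin-Cre, 3.48-fold for Kmt2a+/+ and 2.95-fold for Kmt2a+/LSL. In each library Epha4 gave between 1.53% and 25.7% of the summed EphA signal per kilobase.

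Epha7, Epha2 and Epha3 completed the EphA receptors. Epha7, a receptor with splice forms that lack the kinase domain, measured 17.5, 20.4 and 14.4 CPM in Kmt2a+/+ and 18.4, 20.4 and 24.6 CPM in Kmt2a+/LSL libraries. With nestin-Cre it measured 18.0, 23.3 and 22.2 CPM in Kmt2a+/+ and 28.4, 29.0 and 16.6 CPM in Kmt2a+/LSL cells. Epha2, better known from epithelia and tumours, gave 3.27, 0.835 and 4.26 CPM in Kmt2a+/+ and 2.77, 1.83 and 1.34 CPM in Kmt2a+/LSL, and with nestin-Cre 1.54, 1.92 and 1.99 CPM in Kmt2a+/+ and 2.59, 1.31 and 2.28 CPM in Kmt2a+/LSL cells. Both of its extremes were Kmt2a+/+ libraries. Epha3, with roles in axon guidance and heart development, measured 3.51, 1.43 and 1.13 CPM in Kmt2a+/+ and 2.77, 1.38 and 2.11 CPM in Kmt2a+/LSL. It measured 1.14, 0.599 and 1.07 CPM in Nes-Cre+/- Kmt2a+/+ and 2.39, 0.974 and 1.19 CPM in Nes-Cre+/- Kmt2a+/LSL. The lowest Epha3 value rested on 14 counts.

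**Figure D1:**
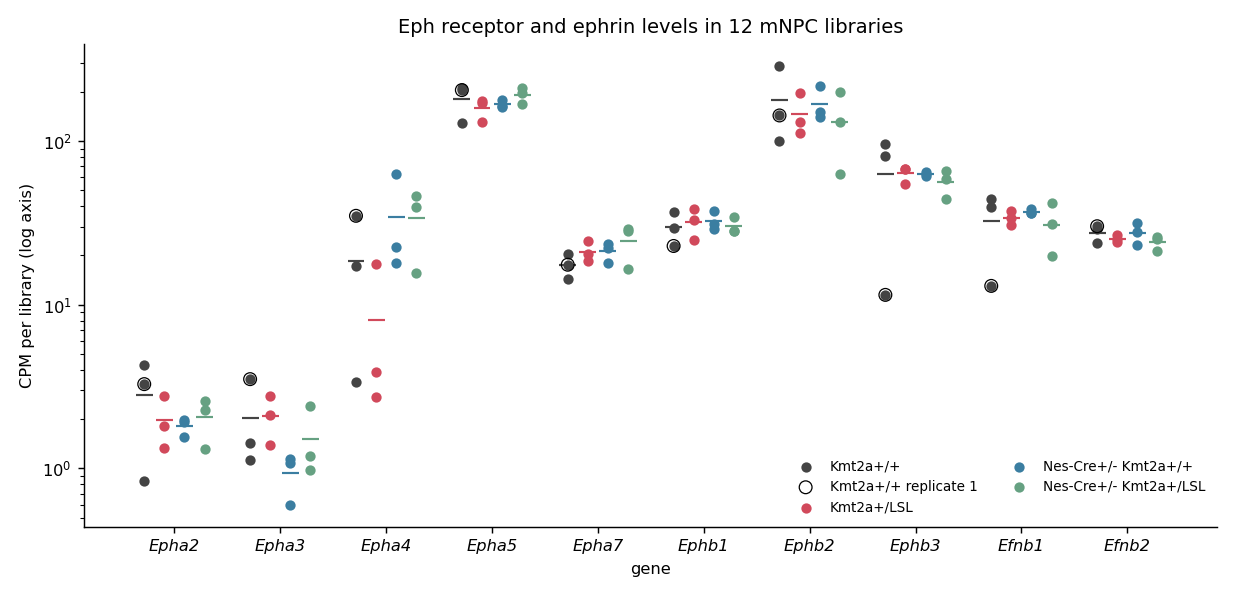
CPM (log axis) of the 10 genes in each of the 12 libraries, coloured by genotype, with short lines at the genotype means and a ring around Kmt2a+/+ replicate 1. Epha4 spans 2.71 to 62.5 CPM, Epha5 only 128 to 211 CPM, and the ringed library is the lowest one for Ephb3 (11.5 CPM) and Efnb1 (13.0 CPM).

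Of the EphB receptors, Ephb2 varied most once Kmt2a+/+ replicate 1 was set aside. Ephb2, which clusters with NMDA receptors at excitatory synapses, measured 143, 99.8 and 288 CPM in Kmt2a+/+ and 196, 131 and 112 CPM in Kmt2a+/LSL. It measured 216, 151 and 141 CPM in Nes-Cre+/- Kmt2a+/+ and 131, 62.9 and 199 CPM in Nes-Cre+/- Kmt2a+/LSL. The genotypes overlapped, and within Nes-Cre+/- Kmt2a+/LSL alone the highest library was 3.16-fold above the lowest. Ephb1, a guidance receptor also present in hippocampal progenitors, measured 22.8, 29.3 and 36.9 CPM in Kmt2a+/+ and 32.8, 25.0 and 38.4 CPM in Kmt2a+/LSL libraries. The libraries with nestin-Cre gave 30.98, 29.0 and 37.2 CPM in Kmt2a+/+ and 28.0, 34.1 and 28.0 CPM in Kmt2a+/LSL cells. The ranges of the 4 genotypes overlapped.

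Ephb3, a receptor that acts together with Ephb2 in commissural axons, showed 1 outlying library. It measured 11.5, 96.0 and 81.0 CPM in Kmt2a+/+ and 54.8, 67.9 and 67.6 CPM in Kmt2a+/LSL libraries. With nestin-Cre it measured 63.2, 61.1 and 64.9 CPM in Kmt2a+/+ and 44.2, 58.9 and 65.7 CPM in Kmt2a+/LSL cells. Kmt2a+/+ replicate 1 was the lowest of the 12 libraries, and the other 2 Kmt2a+/+ libraries were the highest.

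The ligands behaved differently from each other. Efnb1, the X-linked transmembrane ephrin, measured 13.0, 39.6 and 44.2 CPM in Kmt2a+/+ and 37.5, 30.8 and 33.9 CPM in Kmt2a+/LSL libraries. In the presence of nestin-Cre it reached 36.1, 38.5 and 36.5 CPM in Kmt2a+/+ and 19.9, 31.2 and 41.5 CPM in Kmt2a+/LSL cells. As with Ephb3, Kmt2a+/+ replicate 1 was the lowest library. Efnb2, a ligand with roles in vessels and neural progenitors, measured 30.2, 28.9 and 23.8 CPM in Kmt2a+/+ and 25.1, 26.6 and 24.0 CPM in Kmt2a+/LSL libraries. The libraries with nestin-Cre gave 23.3, 31.3 and 27.7 CPM in Kmt2a+/+ and 21.2, 25.9 and 25.1 CPM in Kmt2a+/LSL cells. It was the steadiest member, with a ratio of 1.48 between its highest and lowest library.

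Levels were compared between genes only per kilobase of the longest transcript (mean ± SD, n = 12 libraries). Epha5 was highest, at 23.9 ± 3.76 CPM per kb, and its distance from Ephb2 (14.3 ± 5.52) exceeded both SDs. Ephb2 differed from Ephb3 (12.9 ± 4.28), and Ephb3 from Efnb1 (10.3 ± 2.76), by less than the larger of the 2 SDs. Efnb1 lay above Ephb1 (6.65 ± 1.06) by more than that SD, as did Ephb1 above Efnb2 (5.44 ± 0.623). Efnb2 differed from Epha4 (3.74 ± 2.94), and Epha4 from Epha7 (3.13 ± 0.676), by less than the larger SD. Epha7 lay above Epha2 (0.552 ± 0.243), and Epha2 above Epha3 (0.290 ± 0.153), by more than it. The order depended on the length used. With the mean length of the protein-coding transcripts, the means were 33.1 for Epha5, 30.9 for Ephb2, 23.8 for Ephb3 and 8.49 CPM per kb for Epha4, which then lay above Ephb1 at 7.61.

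The remaining family members were described for comparison. Of 12 further Eph and ephrin genes, 10 passed the filter on low counts, and Epha6 and Epha8 did not, with 5 and 4 counts in total. Ephb4, Ephb6 (a receptor without kinase activity) and Efna2 averaged 32.7, 23.8 and 14.6 CPM, and Efna4 and Efnb3 7.92 and 5.85 CPM. Efna3, Efna5, Efna1, Epha10 and Epha1 averaged between 0.169 and 2.51 CPM. Ephb4, Ephb6, Efna2, Efna4 and Efnb3 were each lowest in Kmt2a+/+ replicate 1, at 10.9, 5.12, 4.46, 0.833 and 1.01 CPM. Efna2 made up 48.4% of the ephrin-A signal per kilobase and Efnb1 57.5% of the ephrin-B signal.

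The spread between replicates was expressed as the SD of log2 CPM after removal of the genotype means, pooled over the 4 genotypes. It was 1.28 for Epha4, at the 96.2 percentile of the 17076 genes, whose median was 0.48. Among the 11677 genes with a mean of at least 50 counts Epha4 stood at the 97.3 percentile. Its edgeR dispersion, a measure of variation between libraries beyond counting error, was 0.496 where the trend for genes of its abundance was 0.109. The other 9 members had smaller SDs. Ephb3 (0.87), Epha2 (0.70), Ephb2 (0.63), Epha3 (0.62) and Efnb1 (0.56) lay above the median of all genes, and Epha7 (0.30), Ephb1 (0.26), Epha5 (0.25) and Efnb2 (0.17) lay below it.

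Leaving out Kmt2a+/+ replicate 1 changed the members unequally. The SD of Ephb3 fell from 0.87 to 0.20 and that of Efnb1 from 0.56 to 0.30, whereas Epha4 stayed at 1.19, Epha2 at 0.72 and Ephb2 at 0.67, and Epha3 was at 0.51. The median of all genes without that library was 0.29, and Epha4 stood at the 97.5 percentile, Epha2 at the 87.3 and Ephb2 at the 84.7. The SD of Epha2 was lowest, at 0.41, when Kmt2a+/+ replicate 2 was left out instead. The spread of Epha4 was present in every genotype, with SDs of 1.71 for Kmt2a+/+ and 1.42 for Kmt2a+/LSL, and, with nestin-Cre, 0.96 for Kmt2a+/+ and 0.84 for Kmt2a+/LSL (n = 3 each). Leaving out any 1 library gave 1.06 to 1.36.

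**Figure D2:**
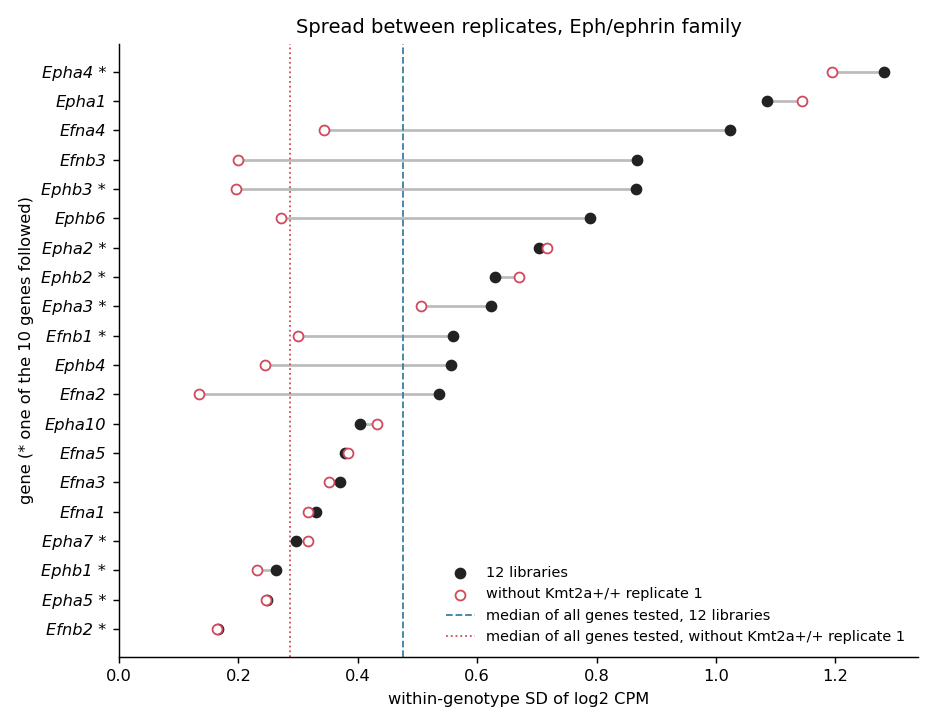
Within-genotype SD of log2 CPM (x axis) for the 20 Eph and ephrin genes that passed the filter, over all 12 libraries (filled) and without Kmt2a+/+ replicate 1 (open), with the medians of all genes as vertical lines. Epha4 keeps an SD above 1 in both, while Ephb3, Efnb3, Efna4 and Ephb6 lose most of theirs.

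The deviations of Kmt2a+/+ replicate 1 went with the GC content of the transcripts. In that library, log2 CPM minus the genotype mean had a Pearson r of -0.70 with GC content across 11622 genes with a mean of at least 50 counts, and of -0.65 across the 20 family genes (genes of 1 library share its depth and are not independent replicates). Deviations within a genotype sum to 0, and Kmt2a+/+ replicates 2 and 3 had the opposite sign (0.50 and 0.71), while Nes-Cre+/- Kmt2a+/LSL replicate 1 had a negative value (-0.46). The transcripts of Ephb3 and Efnb1 have 57.0% and 58.2% GC, and the library lay below the mean of Kmt2a+/+ replicates 2 and 3 by a log2 difference of -2.93 and -1.68. Epha5, Epha7 and Epha3 have 40.1%, 41.7% and 41.9% GC, and their differences were 0.32, 0.03 and 1.40. Epha2, at 56.9% GC, went the other way with 0.75, and Epha4, at 45.6%, had the largest positive difference of the family, 2.17. With an offset for GC content, chosen after seeing the data, the SD was 0.38 for Ephb3, 0.21 for Efnb1 and 1.22 for Epha4. The same library had the highest summed level of the 12 progenitor markers (16174 CPM, against 8416 to 11605 CPM in the others), of which Fabp7 alone made up 8960 CPM. Of those 12 genes, 4 were highest there and 4 lowest (Hes5, Notch1, Msi1 and Sox2), and the same counts held for the 12 neuron markers, whose sum was also highest there (1925 CPM). The library had the lowest sums of the 8 oligodendrocyte (1199 CPM, against 3446 to 5560 CPM) and 8 astrocyte markers (1388 CPM, against 1950 to 4629 CPM). The part of cell makeup in these differences was not tested.

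**Figure D3:**
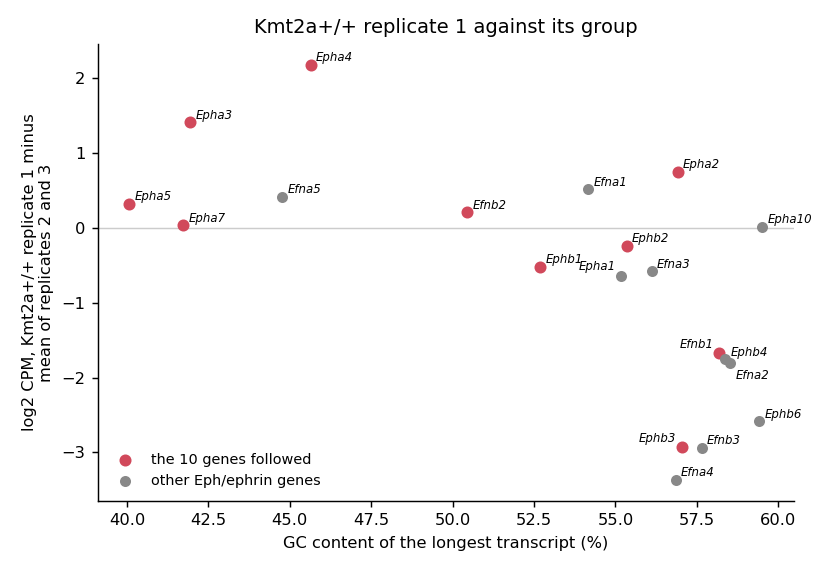
Difference in log2 CPM between Kmt2a+/+ replicate 1 and the mean of replicates 2 and 3 (y axis) against the GC content of the longest transcript (x axis) for the 20 Eph and ephrin genes. The 7 genes lowest on the y axis, from -3.37 to -1.68, have between 56.8% and 59.4% GC, and Epha4 is the highest point at 2.17.

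Kmt2a+/LSL was first compared with Kmt2a+/+ to ask how loss of 1 working copy of Kmt2a affected the family. In none of the comparisons below did a member pass the threshold of an adjusted p under 0.05 (edgeR quasi-likelihood test, Benjamini-Hochberg over all genes). Here 0 of 10 members were called, and 0 of 17076 genes (0%). DESeq2 called 7 genes, limma-voom 2 and DESeq2 with an empirical null 32, none of them a member. At an unadjusted p under 0.05 in edgeR, 0 of the 9 members other than Epha4 were counted, against 306 genes (1.79%), and 0 members had groups that did not overlap, against 4.05% of all genes.

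Epha4 had the largest log2 fold change of the members for Kmt2a+/LSL against Kmt2a+/+. It was at -1.19 ± 0.87 (SE), with means of 8.10 ± 8.36 and 18.5 ± 15.8 CPM (SD, n = 3). That value rested on single libraries, being -0.35 without Kmt2a+/+ replicate 1 and -2.49 without Kmt2a+/LSL replicate 1. It was -0.05 with limma-voom, which weights the libraries. Epha7 had the smallest p of the other 9, with a log2 fold change of 0.28 ± 0.25 (edgeR, adjusted p = 1). Epha2 was at -0.49 ± 0.52, Ephb2 at -0.27 ± 0.45, Epha5 at -0.19 ± 0.20 and Efnb2 at -0.13 ± 0.18. Ephb1, Efnb1, Epha3 and Ephb3 lay between 0.01 and 0.11, with SEs from 0.23 to 0.53. Without Kmt2a+/+ replicate 1, Ephb1 was at -0.05, Epha5 at -0.09, Epha2 at -0.37, Ephb2 at -0.41 and Efnb2 at -0.06, and Epha7 stayed at 0.28. In the same setting Ephb3 was at -0.48 ± 0.16, Efnb1 at -0.30 ± 0.23 and Epha3 at 0.71 ± 0.48, with adjusted p in edgeR of 0.551, 0.660 and 0.626, and no member was called. The median over the 10 members was -0.06, beside 0.00 over all genes.

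Nes-Cre+/- Kmt2a+/LSL was compared with Kmt2a+/LSL to ask what changed when the cassette was removed in neural cells. These values share the Kmt2a+/LSL libraries with those above, so that a high or low library in that group moves both in opposite directions. No member was called by edgeR (0 of 10, with 0% of all genes), DESeq2 (7 genes in all) or limma-voom (2). With DESeq2 and an empirical null, 945 genes were called (5.53%), among them 0 of the 9 members other than Epha4. Epha4 passed as well, but it was chosen for its values in these libraries and its pass is no test. At an unadjusted p under 0.05 in edgeR, 0 of the 9 members other than Epha4 were counted, against 275 genes (1.61%). For 0 members the 2 groups did not overlap, against 7.1% of all genes.

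Epha4 had a log2 fold change of 2.05 ± 0.89 (SE), with means of 33.6 ± 16.0 CPM in Nes-Cre+/- Kmt2a+/LSL and 8.10 ± 8.36 CPM in Kmt2a+/LSL (SD, n = 3). The highest Kmt2a+/LSL library (17.7 CPM) lay above the lowest Nes-Cre+/- Kmt2a+/LSL library (15.6 CPM). Without Kmt2a+/LSL replicate 1 the value was 3.35, and without each of the other libraries in turn it lay between 1.64 and 2.39. Markers of other cell types are described for the same comparison, in which edgeR, DESeq2 and limma-voom called none of them. Of the 8 astrocyte markers 7 had negative log2 fold changes, with a median of -0.40, and 3 did not overlap (7.1% of all genes), and the summed level was 1969 to 2941 CPM against 2452 to 3404 CPM in Kmt2a+/LSL. The 8 oligodendrocyte markers had a median of -0.40, with 5 negative and 2 without overlap, but sums of 3446 to 5308 CPM against 3665 to 4482 CPM. The 11 neuron markers tested had a median of 0.27, with 8 positive and 2 without overlap, and sums over all 12 of 1364 to 1731 CPM against 1293 to 1544 CPM. The endothelial, microglial, mesenchymal and ependymal lists, all at low levels, had medians of -0.73, 0.68, 0.24 and -0.46. In Nes-Cre+/- Kmt2a+/LSL against Nes-Cre+/- Kmt2a+/+, Epha4 was at -0.03. The medians there were -0.34 for the astrocyte, -0.18 for the oligodendrocyte and 0.07 for the neuron markers. The part of cell makeup in the Epha4 values was not tested. Epha5 had the smallest p of the other 9, at 0.27 ± 0.20 (edgeR, adjusted p = 1), and Epha7 was at 0.22 ± 0.24. Epha3 was at -0.47 ± 0.52, and Ephb3, Ephb2, Efnb1, Ephb1, Efnb2 and Epha2 lay between -0.17 and 0.05. With 1 library left out, Epha3 ran from -0.95 (without Nes-Cre+/- Kmt2a+/LSL replicate 1) to -0.21 (without Kmt2a+/LSL replicate 1). Epha7 ran from 0.09 to 0.44, without replicates 2 and 3 of Nes-Cre+/- Kmt2a+/LSL, and Epha5 from 0.15 to 0.36, without replicates 1 and 2 of Kmt2a+/LSL. The median was -0.08 over the 10 members and 0.00 over all genes.

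**Figure D4:**
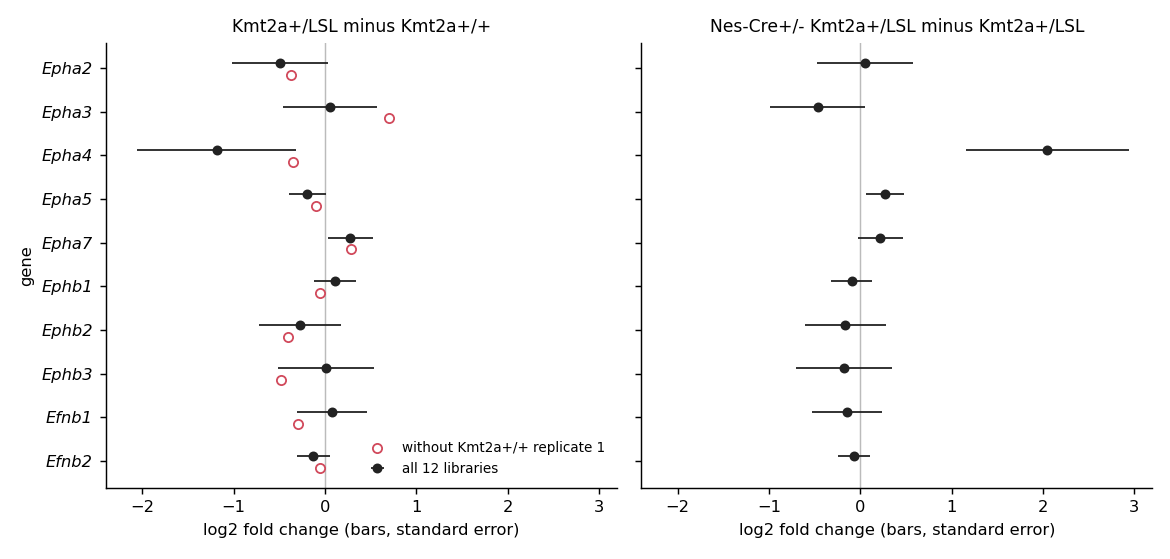
Log2 fold change with its standard error for the 10 genes in Kmt2a+/LSL against Kmt2a+/+ (left) and Nes-Cre+/- Kmt2a+/LSL against Kmt2a+/LSL (right), which share the Kmt2a+/LSL libraries. Open points on the left leave out Kmt2a+/+ replicate 1, which moves Epha4 from -1.19 to -0.35 and Ephb3 from 0.01 to -0.48.

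The transgene by itself was examined in Nes-Cre+/- Kmt2a+/+ against Kmt2a+/+. In the main edgeR fit, Epha3 had the largest log2 fold change of the members in either direction, -1.09 ± 0.53 (edgeR, adjusted p = 1). Its means were 0.936 ± 0.294 CPM in Nes-Cre+/- Kmt2a+/+ and 2.02 ± 1.29 CPM in Kmt2a+/+ (SD, n = 3). Without Kmt2a+/+ replicate 1 its log2 fold change was -0.45. Epha4 was at 0.89 ± 0.86, at 1.71 without Kmt2a+/+ replicate 1, at 0.40 without Kmt2a+/+ replicate 2 and at 0.13 without Nes-Cre+/- Kmt2a+/+ replicate 2, the library with its highest level. Limma-voom gave 2.54 and the replicate block 1.45 for Epha4 here. No member was called, with 0% of all genes called by edgeR, 3 genes by DESeq2, 7 with the empirical null and 0 by limma-voom. At an unadjusted p under 0.05 in edgeR, 0 of the 9 members other than Epha4 were counted, against 239 genes (1.4%). DESeq2 counted 1 of them, Epha3 (DESeq2 Wald test, unadjusted p = 0.043). The share of all genes at that DESeq2 threshold was not counted, so this is a description only. In this comparison 0 members did not overlap, against 4.35% of all genes.

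The effect of the cassette in the presence of Cre was examined in Nes-Cre+/- Kmt2a+/LSL against Nes-Cre+/- Kmt2a+/+. Epha4 was at -0.03 ± 0.85, with means of 33.6 ± 16.0 and 34.3 ± 24.5 CPM (SD, n = 3), and at 0.74 without Nes-Cre+/- Kmt2a+/+ replicate 2. The other 9 members lay between -0.37 (Ephb2) and 0.69 (Epha3), which had the smallest p (edgeR, adjusted p = 1). That Epha3 value was 0.20 without Nes-Cre+/- Kmt2a+/LSL replicate 1 and 0.45 without Nes-Cre+/- Kmt2a+/+ replicate 2. No member was called, with 0% of all genes called by edgeR, 3 genes by DESeq2, 261 with the empirical null and 0 by limma-voom. At an unadjusted p under 0.05 in edgeR, 0 of the 9 members other than Epha4 were counted, against 190 genes (1.11%), and 0 members did not overlap, against 6.68%. The effect of the LSL allele was then compared between cells with and without Cre in 1 model. The difference between the 2 effects was 1.16 ± 1.22 for Epha4 and between -0.34 (Efnb1) and 0.67 (Epha2) for the other 9 members. Limma-voom gave -0.45 for Epha4, 0.01 for Efnb1 and -0.47 for Epha2, which turned all 3 signs. Of the 9, Epha5 had the smallest p (0.38 ± 0.29, edgeR, adjusted p = 1.00). No member was called for the difference by edgeR (0% of all genes, with 295 genes at an unadjusted p under 0.05), DESeq2 (10 genes in all) or limma-voom (0 genes).

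The other Eph and ephrin genes gave no call either by edgeR or, in the 4 comparisons of genotypes, by DESeq2 with an empirical null. In Kmt2a+/LSL against Kmt2a+/+ Epha10, a receptor without kinase activity, was the only one of the 10 that passed the filter whose groups did not overlap (4.05% of all genes), at 0.390 ± 0.0354 CPM in Kmt2a+/LSL and 0.713 ± 0.0767 CPM in Kmt2a+/+ (SD, n = 3), a log2 fold change of -0.86 ± 0.48 with an adjusted p of 1 in edgeR. The Epha10 means rested on few counts, 9 to 10 per Kmt2a+/LSL library and 12 to 23 per Kmt2a+/+ library. In Nes-Cre+/- Kmt2a+/LSL against Kmt2a+/LSL, the groups of all 10 overlapped.

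Genes downstream of the receptors and enzymes that shed receptors and ligands were followed as 2 lists. The signalling list held 33 genes (adaptors, exchange factors and kinases that Eph receptors use) and the shedding list 8 proteases and their partners, all of which passed the filter. No gene of either list was called by edgeR in any comparison. DESeq2 with an empirical null, run for the 4 comparisons of genotypes, called 1, Mmp2, in Nes-Cre+/- Kmt2a+/LSL against Kmt2a+/LSL. It called 945 genes there, 5.53% of all genes. At an unadjusted p under 0.05 in edgeR, 1 gene was counted in 4 comparisons, the matrix metalloprotease Mmp2 (1.61% of all genes in its comparison), at 5.46 ± 2.19 CPM in Nes-Cre+/- Kmt2a+/LSL and 2.37 ± 0.754 CPM in Kmt2a+/LSL (SD, n = 3). Its log2 fold change was 1.21 ± 0.49 (edgeR, adjusted p = 1), and its groups did not overlap (7.1% of all genes). In that comparison 2 signalling genes did not overlap either, the exchange factor Vav2 (-0.17) and the kinase Abl1 (-0.26), both lower and named after their values were seen. In Nes-Cre+/- Kmt2a+/LSL against Nes-Cre+/- Kmt2a+/+, which shares the Nes-Cre+/- Kmt2a+/LSL libraries with it, the values were -0.29 and -0.18, also without overlap (6.68% of all genes). In Kmt2a+/LSL against Kmt2a+/+ the smallest p belonged to Anks1, an adaptor that binds Eph receptors (0.54 ± 0.30), Mmp9 (means of 0.118 and 0.0133 CPM, near or under the floor of 3 counts per library, for which no fold is given) and the rhomboid protease Rhbdl2 (0.48 ± 0.34). Rhbdl2 was higher without overlap there (4.05% of all genes) and, against the same Kmt2a+/+ libraries, in Nes-Cre+/- Kmt2a+/+ (0.33, beside 4.35%). In Nes-Cre+/- Kmt2a+/LSL against Kmt2a+/LSL, Rhbdl2 was at -0.47 ± 0.34 and Anks1b, a relative of Anks1, at -0.28 ± 0.25. For Nes-Cre+/- Kmt2a+/+ against Kmt2a+/+ the list was led by Mmp9 (0.112 and 0.0133 CPM), Anks1b (0.34 ± 0.25) and the adaptor Crk (-0.29 ± 0.23). For Nes-Cre+/- Kmt2a+/LSL against Nes-Cre+/- Kmt2a+/+ it was led by Tiam1, an exchange factor for Rac (0.26 ± 0.23), and Anks1b (-0.29 ± 0.25). The median of the signalling list was between -0.05 and 0.02 in the 4 comparisons, close to that of all genes (0.00 to 0.01).

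The members did not all deviate together from their genotype means. Over the 12 libraries, the deviations of Epha2 followed those of Epha4 most closely among the members, with a Pearson r of 0.84. Without the 2 libraries farthest from their genotype mean for Epha4, that r was 0.75. The deviations of Ephb2 followed Epha4 less closely, with an r of 0.57. That value was 0.39 without the same 2 libraries and 0.72 without Kmt2a+/+ replicate 1. Epha2 with Ephb2 had an r of 0.73, and of 0.81 without Kmt2a+/+ replicate 1. Epha7 and Epha5 went the other way from Ephb2, with r of -0.85 and -0.76. With Epha4 they had r of -0.41 and -0.37, values that depended on the libraries, being -0.24 and -0.02 without the 2 farthest and -0.49 and -0.68 without Kmt2a+/+ replicate 1. Ephb3 and Efnb1 had an r of 0.91, which fell to 0.60 without Kmt2a+/+ replicate 1, whereas Epha2 with Epha4 (0.83) and Epha7 with Ephb2 (-0.85) hardly moved. These values describe 45 pairs over libraries that share a depth and a composition per library, and carry no p.

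**Figure D5:**
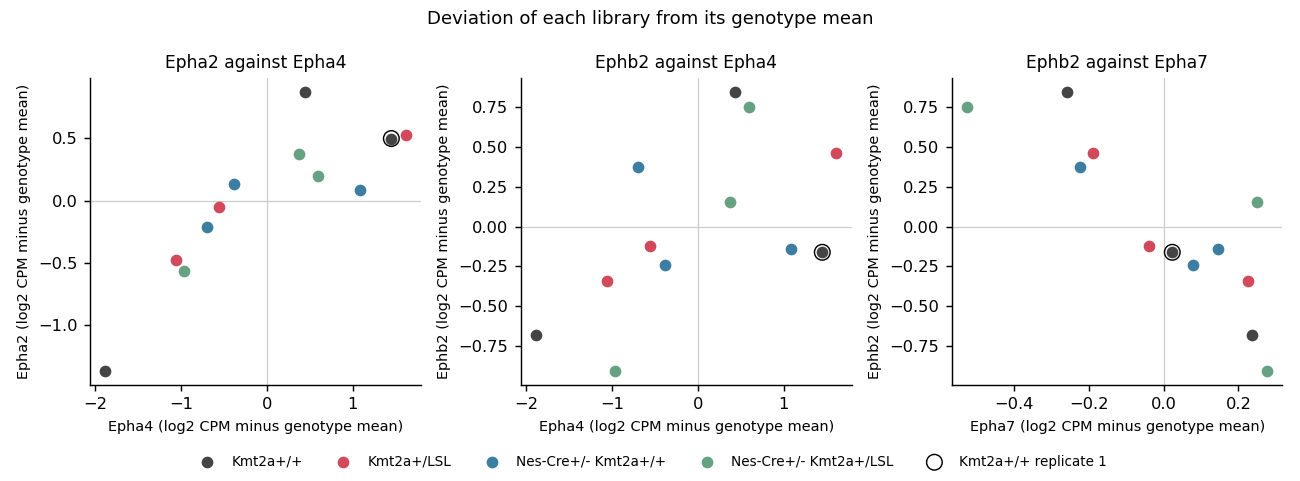
Log2 CPM of each library minus its genotype mean for Epha2 against Epha4, Ephb2 against Epha4 and Ephb2 against Epha7, coloured by genotype with Kmt2a+/+ replicate 1 ringed. Epha2 rises with Epha4 (r = 0.84, n = 12), Ephb2 does so less (0.57), and Ephb2 runs against Epha7 (-0.85).

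The genes whose deviations were most like those of Epha4 came from outside the family. Among 11676 other genes with a mean of at least 50 counts, the highest correlations were those of Tubd1, which encodes delta-tubulin (0.92), the Golgi membrane protein gene Golm1 (0.90), the mitochondrial outer membrane protein gene Cisd1 (0.90), the actin-related Actr3b (0.89) and the mitotic kinase gene Nek6 (0.89). The lowest were those of the zinc finger gene Zscan21 (-0.97), the ubiquitin ligase gene Rnf122 (-0.96) and Plxnc1, a semaphorin receptor gene (-0.95). In all, 43 genes had an r of at least 0.8 and 76 of at most -0.8, together 1.02% of those compared. Kmt2a+/+ replicate 2 and Kmt2a+/LSL replicate 1 were the 2 libraries farthest from their genotype mean for Epha4. Without them, the 8 named genes had an absolute r of 0.83 to 0.94. Those genes were picked for their r over all the libraries, so these values are a description and not a test of stability. Kmt2a itself had an r of -0.23 with Epha4, and its SD within genotypes was 0.05, at the 0.0644 percentile of all genes.

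Marker genes of other cell types were set beside Epha4 in the same way. The summed level of the progenitor markers had an r of 0.37 with Epha4 over the 12 libraries, the neuron markers 0.06, the astrocyte markers -0.47 and the oligodendrocyte markers -0.49. The endothelial markers reached 0.64, but the 6 of 7 in the table summed to only 5.36 to 15.3 CPM, of which Flt1 averaged 5.33 CPM, and Cdh5 had counts in 2 of 12 libraries. Mesenchymal markers (8 of 9 in the table) gave -0.39 at a sum of 1.31 to 14.7 CPM, ependymal and choroid plexus markers (5 of 6) -0.38 at 4.402 to 34.8 CPM, and microglial markers (5 of 9) 0.30 at 0.569 to 2.56 CPM. The part of cell makeup in the spread of Epha4 was not tested.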

How the data were processed

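Poly(A)-selected RNA of 12 mNPC libraries was measured. The authors assigned reads to the mm10 (GRCm38) transcriptome with kallisto 0.48.0, and deposited estimated counts for each gene as whole numbers without normalization. These are estimates that divide reads among similar transcripts, and the count tests were run on them as they are. A gene was kept (17076 of 18911) where its total exceeded 10 counts and 2 or more libraries had counts. Ensembl identifiers were matched to GRCm38 symbols (99.0%). All 12 libraries were fitted together with genotype as the only term in edgeR 4.0.16 (TMM, two-sided quasi-likelihood test, Benjamini-Hochberg adjustment, threshold 0.05) under R 4.3.3. Limma 3.58.1 (voom with sample weights) and DESeq2 1.42.0 served as alternatives, the latter also with its statistic rescaled to an empirical null fitted to the central 75% of values. Log2 CPM used a prior count of 2. The scripts were tested on simulated data. Figures were drawn with matplotlib 3.10.9.

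The members and the gene lists were chosen with earlier results of these data known. Genes named were the members, Kmt2a, the other Eph and ephrin genes, the 3 signalling or shedding genes with the smallest p in each comparison, the 5 genes most and 3 least like Epha4, and listed cell type markers. Lengths, GC content and shared 31-base words came from the GRCm38 annotation, and the promoter windows from RefSeq. Protein sequences were not used here. One gene that this rule names is not reported here.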

Additional observations from a re-analysis of the deposited data

How the results depend on the processing

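Over the alternatives run (DESeq2 with or without an empirical null, its size factors in edgeR, limma-voom, no filter, 10 counts in every library, fewer genotypes in the fit, a replicate block, a GC offset, and single libraries left out), the count of members called stayed at 0 in each of the 4 comparisons of genotypes, except that the empirical null called 1, Epha4, in Nes-Cre+/- Kmt2a+/LSL against Kmt2a+/LSL (log2 fold change 2.07). Epha4 was chosen for its values in these libraries, so this pass is given as a description. Libraries with the same replicate number were only weakly alike. The mean correlation was 0.08 for the 18 same-number pairs and -0.04 for the 36 pairs with different numbers. Of the same-number pairs, 5 correlated above 0.1 (range -0.07 to 0.42), and 6 of 12 libraries correlated best with their own number. For the interaction of LSL allele and Cre, the DESeq2 Wald test, limma-voom, the replicate block and the GC offset, alone or with the block, were the alternatives run, and each called 0 members. With the replicate block 0 members were called in each comparison, and Epha4 was at -1.23 in Kmt2a+/LSL against Kmt2a+/+ and 2.33 in Nes-Cre+/- Kmt2a+/LSL against Kmt2a+/LSL. The block moved the SD of Epha3 to 0.34.

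Several signs turned. In Kmt2a+/LSL against Kmt2a+/+, Ephb3 was at -0.0065 with DESeq2 size factors and -0.0055 with the DESeq2 Wald test and the empirical null. Limma-voom gave 0.35 for Epha2, -0.00062 for Ephb1, 0.014 for Ephb2, -0.45 for Ephb3 and -0.24 for Efnb1. The GC offset, added after seeing the data, gave -0.043 for Ephb1 and -0.15 for Efnb1, and with the replicate block -0.047 and -0.15. In Nes-Cre+/- Kmt2a+/LSL against Kmt2a+/LSL, Epha2 was at -0.16 with limma-voom and -0.0036 with the replicate block. With 1 library left out, the first comparison ranged from -0.048 to 0.30 for Ephb1, -0.48 to 0.45 for Ephb3, -0.30 to 0.37 for Efnb1, -0.23 to 0.71 for Epha3 and -0.56 to 0.27 for Ephb2. The second ranged from -0.59 to 0.17 for Ephb2, -0.16 to 0.38 for Epha2, -0.24 to 0.057 for Ephb1, -0.41 to 0.095 for Efnb1 and -0.13 to 0.012 for Efnb2. Epha4 ranged from -0.34 to 0.74 in Nes-Cre+/- Kmt2a+/LSL against Nes-Cre+/- Kmt2a+/+. The causes were not tested.

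The SD with 1 library left out ran from 0.20 to 0.93 for Ephb3 and 0.30 to 0.60 for Efnb1 (lowest without Kmt2a+/+ replicate 1), 0.41 to 0.75 for Epha2 (lowest without Kmt2a+/+ replicate 2) and 0.16 to 0.26 for Epha5 (lowest without Kmt2a+/+ replicate 3). The GC offset gave 0.38 for Ephb3 and 0.21 for Efnb1. Per kilobase of the mean protein-coding transcript, levels were 0.555 for Epha3, 8.49 for Epha4, 33.1 for Epha5, 4.55 for Epha7, 30.9 for Ephb2, 23.8 for Ephb3 and 9.58 CPM for Efnb2. Depth limits Epha2 and Epha3, whose libraries held as few as 21 and 14 counts.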
